A study of Oreochromis niloticus with 24 samples.

Results

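The 4 receptor genes described here, of the glutamate and GABA class (class C) of G protein-coupled receptors, were followed across the sorted pituitary cells of the Nile tilapia: grm5, LOC100700221 (metabotropic glutamate receptor 4, grm4), LOC100705106 (metabotropic glutamate receptor 7, grm7) and gpr158. They were chosen by name, as the metabotropic glutamate receptors of the study's tables of enriched genes together with the orphan receptor gpr158. These 4 genes are among 2932 genes held by either table, with 4 of 2392 genes in males and 3 of 1849 in females. gpr158 in females was not analysed here.

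Metabotropic glutamate receptors bind glutamate with a large extracellular domain and signal through G proteins rather than by opening a channel. The group I receptor grm5 couples through Gq to phospholipase C beta and the release of stored calcium, whereas the group III receptors grm4 and grm7 couple through Gi/o and lower cyclic AMP. In mammals, GPR158 holds the RGS7 and Gβ5 complex at the membrane, which shortens Gi/o signals, and it has been described there as a receptor for glycine.

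The fish were mature males and females of the Lake Manzala strain, all carrying both an FSH-promoter GFP and an LH-promoter RFP transgene, so that each fluorophore marks the cells in which its promoter is active. Pools of pituitaries (20 per pool in the labels) were dispersed with trypsin and sorted into a GFP positive FSH fraction, an RFP positive LH fraction and a negative fraction of non-fluorescent cells, which holds the remaining pituitary cells. Each sex was sorted 4 times, giving 4 libraries for each of the 3 fractions and 24 libraries in all. Levels are given as normalized reads (NR): reads scaled to a common library depth by size factors. They are not corrected for gene length, so levels were compared between fractions and never between genes.

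The sort labels were checked first. In males fshb averaged 48574 NR in FSH, 194 in LH and 106 in negative cells, and in females 33948, 37.1 and 34.9. For lhb (LOC100534501) the male means were 20.3 NR in FSH, 5653 in LH and 15.7 in negative cells, and the female means 12.8, 1335 and 7.51. Male LH replicate 1 stood apart from the other male LH libraries in lhb (10131 NR against 3970 to 4353), and the male LH values of the receptors are given with and without it. Of 52 called male LH differences of the other class C and list genes, 50 were still called without it, and those of shank3a (LH to negative) and adcy3b (FSH to LH) were not. Between 69091 and 2004647 reads fell on the genes of the tables per library, and 3 reads, taken as the limit of detection, equal 1.22 to 7.21 NR (counting error only). The female LH libraries also carried macrophage genes, 5 of which were matched (c1qb, cd74, cd74b, csf1r and marco): their summed level was 667 to 1315 NR in FSH, 5564 to 12934 in LH and 2705 to 4426 in negative cells, and csf1r was at 0 in all 4 female FSH libraries. Against negative cells all 5 were called lower in FSH and higher in LH cells, beside 18.8% and 28.5% of all female genes. The genes analysed were mainly those enriched over negative cells in FSH or LH cells. These 5 thus entered through LH cells, and their sums are given as a description. No macrophage marker was matched among the male genes, so the male LH libraries could not be assessed in this way. The vessel marker cdh5, matched in males, was called higher in LH than in negative cells (1.18), beside 51.2% of all male genes. Between FSH and negative cells it was not called (−0.55). Genes used as neuronal markers were highest in FSH cells, with a sum of 2767 to 4768 NR over 4 genes in male FSH cells, 1756 to 1934 in LH and 556 to 962 in negative cells, and 1637 to 2312, 468 to 904 and 480 to 674 NR over 3 genes in females. Of these neuronal markers, 1 of 4 in males and 2 of 3 in females were called higher in FSH than in LH cells, beside 25.6% and 47.6% of all genes. Against negative cells all were called higher in FSH cells, beside 75.8% of all male and 69.7% of all female genes. In LH cells 2 of 4 in males and 0 of 3 in females were called higher, beside 51.2% and 28.5%. For those not called in LH cells the selection of enriched genes favoured a higher FSH level, so these sums are also a description. The part of the macrophage, vessel and neuronal genes in the results was not tested.

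Across the 4 receptors, FSH against LH cells gave 2 of 4 called higher in FSH cells in males and 2 of 3 in females, where 25.6% and 47.6% of all genes were called higher and 14.9% and 24.5% lower. FSH against negative cells gave 4 of 4 and 3 of 3 called higher, where the tables hold 75.8% and 69.7% higher and 7.53% and 18.8% lower. LH against negative cells gave 3 of 4 higher in males and 0 of 3 higher and 1 of 3 lower in females, where the tables hold 51.2% and 28.5% higher and 0.627% and 1.14% lower. Almost every gene of the tables has a mean more than 2-fold above the negative cells in FSH or LH cells (99.2% of male and 98.8% of female genes). A higher level than in negative cells is therefore how these genes entered the tables, and it is given as a description. The FSH to LH comparison is not free of this selection. grm7 in both sexes and grm5 and grm4 in females passed 2-fold by their means only in FSH cells, so a higher level in FSH than in LH cells was favoured by their entry, and their FSH to LH p-values are no independent test. grm5, grm4 and gpr158 in males passed in both cell types. The limit also holds for other genes named below that passed in a single cell type. For example, gprc5a and dlgap2 in both sexes and grin2ca and adcy8 in females passed only in FSH cells. gria2 and adcy9 in both sexes passed only in LH cells, which favoured a lower level in FSH cells. The FSH to LH differences of such genes, and list counts that hold them, are given as a description. A gene was called at a difference in log2(NR + 1) beyond 1 and a Benjamini-Hochberg adjusted p below 0.05 in limma over all genes of the table. Scaling by TMM over the tables, which centres these enriched genes, moved the median FSH to negative difference of all male genes to −0.01, against 1.39, with 324 genes called higher and 316 lower, and left the male grm4, grm7 and gpr158 differences at 0.28, 0.0016 and 0.27, not called. All values below are on the scale of the deposited size factors.

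The group I receptor grm5 had the largest FSH to LH difference of the 4 receptors in males. In females it had the largest difference in log2(NR + 1), whereas the ratio of means was larger for grm7 (15.6 against 14.6). In males its level was 528, 1162, 1488 and 578 NR in the 4 FSH libraries, 265, 185, 97.9 and 50.2 NR in LH and 68.5, 43.7, 44.8 and 33.7 NR in negative cells. Every FSH library lay above every LH and negative library, while the lowest LH library lay below the highest negative one. Of all male genes, 72.1% had all FSH above all negative libraries, 55% all LH above all negative and 37.2% all FSH above all LH libraries. In females the FSH libraries held 443, 603, 295 and 229 NR, the LH libraries 30.6, 39.3, 18.2 and 19.3 NR and the negative libraries 26.5, 17.5, 37.6 and 27.5 NR. The female FSH libraries were again apart from the others, and the female LH and negative libraries overlapped. The shares of such genes in the female table were 65.9% for FSH above negative, 28.2% for LH above negative and 54.7% for FSH above LH libraries.

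Between FSH and LH cells, grm5 was higher in FSH cells by 2.76 ± 0.44 on the log2 scale in males (SE, n = 4 per fraction, limma adjusted p = 6.54e-05) and by 3.79 ± 0.32 in females (adjusted p = 3.48e-09). By the means, 939 ± 466 NR in male FSH cells stood against 150 ± 95.3 in LH cells, a ratio of 6.27, and 392 ± 166 NR in female FSH cells against 26.9 ± 10.04 in LH cells, a ratio of 14.6 (SD, n = 4). Ordered by this difference, grm5 had the rank 85 of 2392 in males and 34 of 1849 in females. Fewer cells of a type and less RNA of the gene per cell cannot be told apart in such bulk libraries.

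Against negative cells, grm5 was higher in FSH cells by 4.18 ± 0.44 in males (adjusted p = 4.22e-07) and by 3.75 ± 0.32 in females (adjusted p = 5.33e-09). In male LH cells grm5 was higher than in negative cells by 1.42 ± 0.44 (adjusted p = 0.0101), and the groups overlapped. Without male LH replicate 1 the difference was 1.06 (adjusted p = 0.0358), and without replicate 2 of every fraction it was 1.20 and not called (adjusted p = 0.0728). In female LH cells the difference was −0.04 with a 95% interval of −0.71 to 0.63.

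**Figure D1:**
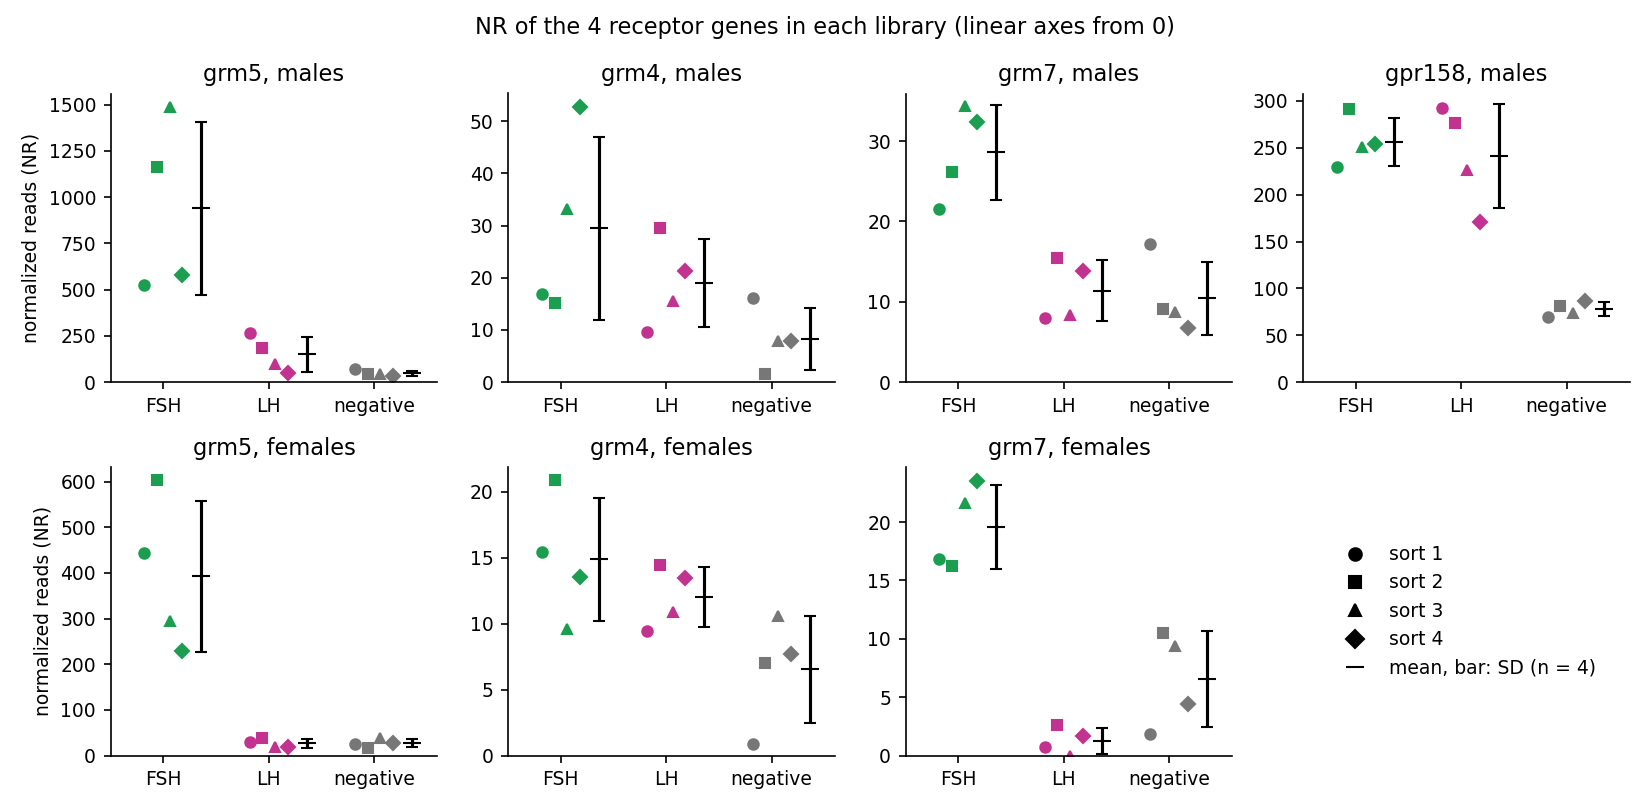
Each point is the level of a gene in 1 library, in normalized reads (NR, linear axes from 0), by fraction and sex, with the symbol giving the sort and the black bar the mean and SD of 4 libraries. All FSH libraries of grm5 and grm7 lie above all LH libraries in both sexes, while the FSH and LH libraries of grm4 and gpr158 overlap.

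The spread of grm5 among the male sorts was wide. Libraries with equal replicate numbers were taken to come from 1 pool and sort. On this basis the FSH cells held 1.99, 6.27, 15.2 and 11.5 times the LH level in male sorts 1, 2, 3 and 4, and 14.5, 15.3, 16.2 and 11.8 times in the female sorts. The LH level thus came to 50.3% of the FSH level in male sort 1 and to 6.58 to 16.0% in the others, against 6.17 to 8.44% in females. The FSH cell hormone gene fshb did not share this pattern: its LH level was 0.28 to 0.51% of the FSH level in the male sorts, with the lowest share in sort 1, and 0.08 to 0.15% in the female sorts. The common alpha subunit gene cga, which both cell types use, had 67.8% in male sort 1 and 11.4 to 31.0% in the others, and 6.70 to 14.3% in females. Against negative cells cga was called higher in male LH cells (2.43). In female LH cells it was not called (0.45, limma adjusted p = 0.266), and the groups overlapped. Without male LH replicate 1 the difference of grm5 between FSH and LH cells in males was 3.12 (adjusted p = 1.05e-05).

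**Figure D2:**
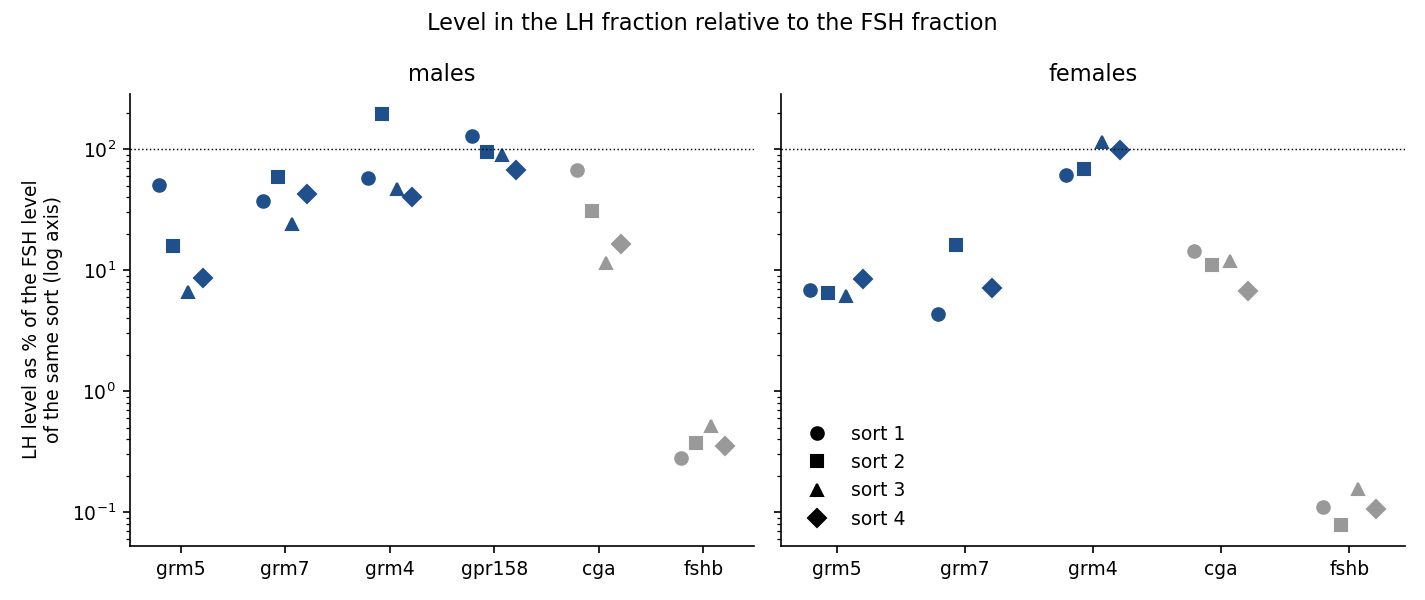
The level in the LH library is drawn as a percentage of the level in the FSH library of equal replicate number, taken as the same sort, on a log axis, for the receptor genes (blue) and for cga and fshb (grey); the dotted line is an equal level and symbols give the sort. The grm5 points lie between 6.17 and 50.3%, far above fshb at 0.08 to 0.51%; grm7 in female sort 3 has 0 LH reads and is not drawn.

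The group III receptor grm7 was read at a low level and was also higher in FSH than in LH cells. Male libraries had 21.5, 26.1, 34.4 and 32.4 NR in FSH, 8.04, 15.4, 8.33 and 13.8 NR in LH and 17.1, 9.05, 8.78 and 6.73 NR in negative cells. Female libraries had 16.9, 16.3, 21.6 and 23.5 NR in FSH, 0.73, 2.62, 0 and 1.68 NR in LH and 1.83, 10.5, 9.41 and 4.39 NR in negative cells. Every female LH value lay below the detection limit of its library (2.18 to 5.47 NR). In both sexes all FSH libraries lay above all LH and all negative libraries, and the LH and negative libraries overlapped. All FSH above all LH libraries was found in 37.2% of male and 54.7% of female genes, and all FSH above all negative in 72.1% and 65.9%.

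The difference of grm7 between FSH and LH cells was 1.28 ± 0.37 in males (adjusted p = 0.0082) and 3.33 ± 0.52 in females (adjusted p = 9.93e-06). The male value was no longer called without replicate 3 of every fraction (1.07, adjusted p = 0.0760) or under TMM (0.90, adjusted p = 0.0512), and was 1.15 without male LH replicate 1 (adjusted p = 0.0194). The female value rests on 73 reads in the FSH libraries and 5 reads in the LH libraries, a ratio of 14.9 at equal depth with a 95% counting interval of 6.09 to 47.1 (exact binomial). Against negative cells, grm7 was higher in FSH cells by 1.43 ± 0.37 in males (adjusted p = 0.00202) and by 1.64 ± 0.52 in females (adjusted p = 0.0062).

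In LH cells grm7 did not follow grm5. Its difference from negative cells was 0.14 ± 0.37 in males (adjusted p = 0.734, and 0.28 without LH replicate 1) and −1.69 ± 0.52 in females (adjusted p = 0.0159), where it was called lower. That female call compares 5 reads in LH with 20 reads in negative cells, a ratio of 0.22 with an exact counting interval of 0.06 to 0.61. It was lost without replicate 3 of every fraction (−1.13, adjusted p = 0.132) and without female negative replicate 2 (−1.42, adjusted p = 0.0552). The female LH libraries are those with the macrophage genes given above, and their part in this difference was not tested. On the O_niloticus_UMD_NMBU assembly both group III genes lie on linkage group 5, grm7 at LG5:1619478-1785137 and grm4 at LG5:9594860-9778761.

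The second group III receptor, grm4, was not told apart between FSH and LH cells. In males it had 16.8, 15.1, 33.2 and 52.8 NR in FSH, 9.65, 29.5, 15.6 and 21.3 NR in LH and 16.1, 1.51, 7.91 and 7.85 NR in negative cells. In females it had 15.5, 20.9, 9.61 and 13.6 NR in FSH, 9.46, 14.4, 10.9 and 13.4 NR in LH and 0.91, 7.001, 10.6 and 7.69 NR in negative cells. All 3 fractions overlapped in both sexes, and the lowest negative library of each sex held 1 read. The FSH to LH difference was 0.53 with a 95% interval of −0.63 to 1.70 in males (adjusted p = 0.408) and 0.25 with an interval of −0.77 to 1.27 in females (adjusted p = 0.622). Both intervals include a 2-fold higher level in FSH cells, and neither includes a 2-fold lower one.

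Against negative cells, grm4 was higher in FSH cells by 1.82 ± 0.55 in males (adjusted p = 0.00567) and by 1.29 ± 0.49 in females (adjusted p = 0.0172; −0.17 under TMM). The female call was lost without female negative replicate 1, the library with a single read (0.72, adjusted p = 0.0906), without female FSH replicate 2 (1.12, adjusted p = 0.0549) and without replicate 1 (0.69) or 2 (1.24) of every fraction. In LH cells the difference was 1.29 ± 0.55 in males (adjusted p = 0.0483) and 1.04 ± 0.49 in females (adjusted p = 0.0942). The male LH call held in 6 of 16 fits that left libraries out, which ranged from 0.52 to 1.95. It was lost without replicate 2, 3 or 4 of every fraction and without any 1 of FSH replicate 3, LH replicates 2, 3 and 4 and negative replicates 2, 3 and 4. Without male LH replicate 1 the male values were 1.56 for LH to negative (adjusted p = 0.0265) and 0.26 for FSH to LH. The female LH difference was called without negative replicate 3 (1.34, adjusted p = 0.0474).

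**Figure D3:**
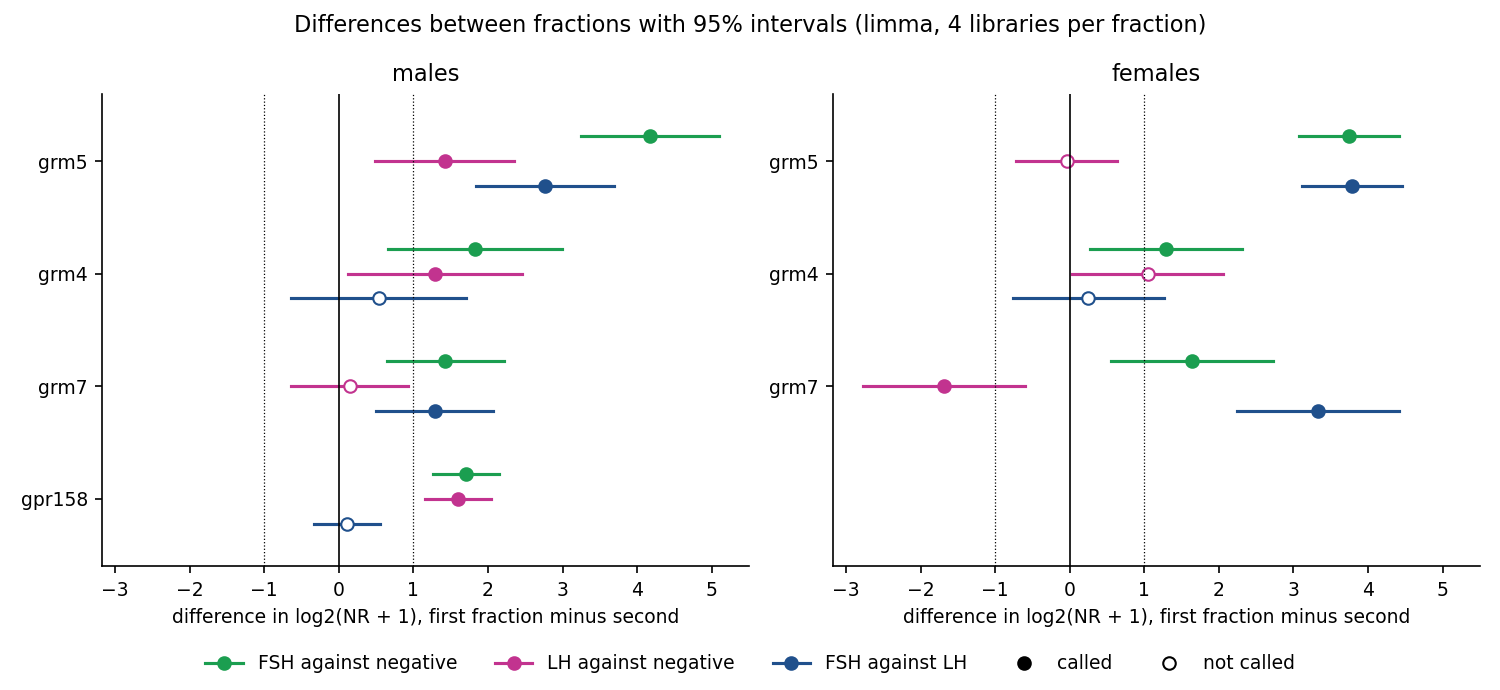
Differences between fractions in log2(NR + 1) are drawn with 95% intervals from limma (4 libraries per fraction), males on the left and females on the right; filled points are called, open points are not, and dotted lines mark a difference of 1. The FSH against LH intervals of grm5 and grm7 lie above 0 in both sexes, and those of grm4 and gpr158 include 0.

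gpr158 was high in both gonadotroph types of males. It had 229, 291, 251 and 254 NR in FSH, 293, 277, 226 and 171 NR in LH and 69.6, 81.4, 73.8 and 86.4 NR in negative cells. Every FSH and LH library lay above every negative library, and FSH and LH overlapped. All FSH above all negative libraries was found in 72.1% of male genes, and all LH above all negative in 55%. Against negative cells the difference was 1.71 ± 0.21 in FSH (adjusted p = 2.13e-06) and 1.60 ± 0.21 in LH cells (adjusted p = 1.89e-05). Between FSH and LH cells it was 0.11 with an interval of −0.34 to 0.56 (adjusted p = 0.657), an interval that lies within a 2-fold difference either way. Without male LH replicate 1 the values were 1.49 for LH to negative (adjusted p = 6.47e-05) and 0.21 for FSH to LH. No single library moved the FSH to LH difference outside −0.045 to 0.21.

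The annotation names this gene gpr158a (LG9:12204565-12291720) and holds a second copy, gpr158b (LOC100697448, LG18:8125734-8204379), which the male table also lists. gpr158b had 19.7, 26.5, 16.0 and 13.2 NR in FSH, 56.3, 173, 192 and 166 NR in LH and 47.1, 70.9, 54.5 and 65.1 NR in negative cells. All FSH libraries lay below all LH and all negative libraries, and male LH replicate 1 was the only LH library within the range of the negative ones. The difference was −2.80 ± 0.36 between FSH and LH cells (limma adjusted p = 7.66e-06), where all FSH libraries lay below all LH libraries in 14.7% of the male genes. Between FSH and negative cells it was −1.63 ± 0.36 (limma adjusted p = 0.000509), where 7.53% of the male genes were called lower in FSH cells. Between LH and negative cells it was 1.16 ± 0.36 (limma adjusted p = 0.00976). By its means gpr158b passed 2-fold over negative cells only in LH cells. A lower level in FSH than in LH cells was thus favoured by its entry, and its FSH to LH p-value is no independent test. Without male LH replicate 1 the FSH to LH difference was −3.20 (adjusted p = 1.26e-07) and the LH to negative difference 1.57. The LH to negative call was lost without replicate 3 of every fraction (0.95) and without LH replicate 3 (0.99). Whether reads were split between the copies was not tested. The symbol grm5 could not be tied to either of the annotated copies, grm5a on LG10 or grm5b on LG14, and no position is given for it.

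**Figure D4:**
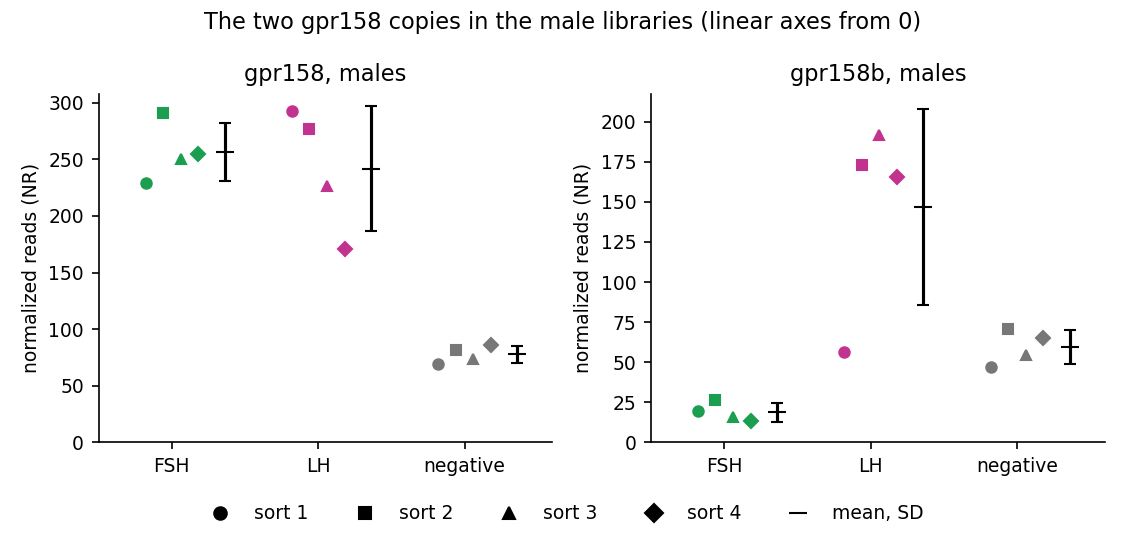
Levels of gpr158 (left) and of its second copy gpr158b (right) in the 12 male libraries are plotted in NR on linear axes from 0, with the symbol giving the sort and the black bar the mean and SD of 4 libraries. FSH and LH libraries overlap for gpr158, whereas all FSH libraries of gpr158b, at 13.2 to 26.5 NR, lie below all LH libraries at 56.3 to 192 NR.

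Whether the receptors differed between the sexes was asked as a difference of differences, males minus females, over the 1309 genes of both tables. Of these, 15 genes were called higher and 3 lower for FSH against negative cells (1.15% and 0.229%), 163 and 4 for LH against negative cells (12.5% and 0.306%), and 1 and 3 for FSH against LH cells (0.0764% and 0.229%). None of grm5, grm4 and grm7 was called in limma. For LH against negative cells grm5 was 1.46 ± 0.57 higher in males (limma adjusted p = 0.0821, 95% interval 0.29 to 2.63) and grm7 1.84 ± 0.64 higher (adjusted p = 0.0541, 95% interval 0.53 to 3.14), where the median over all genes was 0.53. DESeq2 on recovered reads gave an adjusted p of 0.0483 for grm5. In limma grm5 was called without male LH replicate 4 (1.89) or female LH replicate 2 (1.66), and grm7 without replicate 1 of every fraction (2.55), male negative replicate 1 (2.08), female LH replicate 2 (2.12) or female negative replicate 1 (2.24). For FSH against negative cells the differences were 0.43 ± 0.57 for grm5, 0.53 ± 0.76 for grm4 and −0.21 ± 0.64 for grm7, with adjusted p of 0.808 or higher. For FSH against LH cells grm7 was at −2.04 ± 0.64 (limma adjusted p = 0.244) and grm5 at −1.03 ± 0.57 (adjusted p = 0.489).

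A total of 11 class C receptor genes were found in the male table and 8 in the female table, members included. Between FSH and LH cells 3 were called higher and 2 lower in males (median 0.53 on the log2 scale, against 0.54 over all genes), and 4 were called higher and 0 lower in females (median 1.07, against 0.96). Over all genes, 25.6% were called higher and 14.9% lower in males, and 47.6% and 24.5% in females. Beside grm5 and grm7, gprc5a, an orphan receptor known in mammals as retinoic acid-induced 3, was higher in FSH cells, with means of 36.9 NR in FSH, 3.28 in LH and 3.37 in negative cells of males and 67.5, 1.94 and 4.13 NR in females, levels near the detection limit outside FSH cells. The GABA-B receptor subunits gabbr1a and gabbr2 and the orphan receptors gprc5c and gprc5c-like were not called between FSH and LH cells. A further row named gabbr1 differed in direction between the tables, and whether the name stands for the same gene in both could not be settled: in males it was lower in FSH (7.59 NR) than in LH cells (40.5 NR), with a difference of −2.39, and in females higher in FSH (173 NR) than in LH cells (73.8 NR), with a difference of 1.24. The FSH libraries of gabbr1 overlapped with the LH libraries in females only. The female call was lost without FSH replicate 1 (0.90, adjusted p = 0.0761), without LH replicate 3 (0.96, adjusted p = 0.0629), without replicate 3 of every fraction (1.01, adjusted p = 0.0930) and under TMM (0.28).

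Ionotropic receptors, which are glutamate-gated channels, and genes of glutamate supply were divided. In males 4 of 9 were called higher and 4 lower in FSH than in LH cells, and in females 4 of 6 higher and 2 lower (medians 0.86 and 1.33), beside 25.6% higher and 14.9% lower of all male genes and 47.6% and 24.5% of all female genes (medians 0.54 and 0.96). Higher in FSH cells of both sexes were the NMDA receptor subunit gene grin2ca (2.17 in males and 2.604 in females on the log2 scale), the glutamine synthetase gene glula (1.53 and 1.15) and the neutral amino acid transporter gene slc1a4 (2.01 and 2.1996). The AMPA receptor subunit genes gria2 and gria4a were lower in FSH cells: gria2 averaged 2.36 NR in FSH, 69.5 in LH and 28.9 in negative cells of males and 1.38, 85.7 and 24.8 NR in females, and gria4a differed by −1.80 in males and −3.52 in females. The gria2 means in FSH cells lie at or below the detection limit of those libraries (1.22 to 3.69 NR in males and 2.11 to 7.21 NR in females). gria1, another AMPA receptor subunit gene, was called higher in FSH cells in females (1.51) and was at 0.86 in males (adjusted p = 0.0613). Of the genes found in males only, grin2bb, another NMDA receptor subunit gene, and the ionotropic receptor gene grik2 were called lower in FSH than in LH cells. The glutamate supply gene glud1 was called higher in FSH cells. Under TMM the female calls of glula (0.20) and gria1 (0.57) and the male call of glud1 (0.77) were lost.

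Of the partners and effectors of group I receptors, 4 of 13 were called higher and 3 lower in FSH than in LH cells in males (median 0.19), and 3 of 7 higher and 1 lower in females (median 0.89). These counts lie near the shares over all genes, 25.6% higher and 14.9% lower in males and 47.6% and 24.5% in females. The postsynaptic scaffold gene dlgap2, whose product binds SHANK proteins, had 387, 342, 491 and 528 NR in FSH, 65.9, 28.1, 25.0 and 30.1 NR in LH and 40.7, 25.6, 23.7 and 24.7 NR in negative cells of males. In females it had 230, 294, 483 and 1214 NR in FSH, 10.2, 10.5, 21.9 and 11.8 NR in LH and 9.13, 31.5, 34.1 and 13.2 NR in negative cells. All FSH libraries of dlgap2 lay above all others, and its FSH to LH difference was 3.61 in males and 5.01 in females. All FSH above all LH libraries was found in 37.2% of male and 54.7% of female genes. The scaffold gene shank3b (2.03 and 1.94) and the cation channel gene trpc7b (1.04 and 1.36) were called higher in FSH cells of both sexes, and trpc4a was lower in both (−3.44 and −3.02). The male call of trpc7b was lost without replicate 3 (0.90) or 4 (0.98) of every fraction, without FSH replicate 4 (0.92) or LH replicate 3 (0.89) and under TMM (0.63), and the female call under TMM (0.40).

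Phospholipase C beta 1, the enzyme that Gq activates, was called higher in FSH than in LH cells in males only, and its difference in females (0.89) fell short of the limit of 1. The gene plcb1 had 690, 601, 795 and 619 NR in FSH, 236, 317, 294 and 250 NR in LH and 103, 119, 103 and 72.9 NR in negative cells of males. In females it had 332, 361, 380 and 314 NR in FSH, 127, 266, 179 and 199 NR in LH and 106, 105, 118 and 131 NR in negative cells. The FSH libraries lay above the LH libraries in both sexes, as in 37.2% of male and 54.7% of female genes. Under TMM the male difference was 0.90 and not called. The FSH to LH difference of plcb1 was not called different between the sexes (0.41 ± 0.29, adjusted p = 0.594), while its FSH to negative difference was 1.18 ± 0.29 higher in males (adjusted p = 0.0302).

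Of the partners and effectors of group II and III receptors and of gpr158, 3 of 15 were called higher and 5 lower in FSH than in LH cells in males, and 4 of 8 higher and 2 lower in females (medians 0.30 and 1.53), beside 25.6% higher and 14.9% lower of all male genes and 47.6% and 24.5% of all female genes. Adenylyl cyclase genes, whose products make the cyclic AMP that Gi lowers, took both directions. adcy1a (2.12 in males and 2.73 in females) and adcy8 (2.30 and 2.58) were higher in FSH cells. adcy9 was lower there, with 20.6, 16.7, 11.1 and 4.80 NR in FSH, 553, 968, 1414 and 1142 NR in LH and 275, 464, 298 and 349 NR in negative cells of males, and with 4.92, 9.29, 0 and 5.43 NR in FSH, 592, 1472, 809 and 734 NR in LH and 385, 277, 362 and 480 NR in negative cells of females. The adcy9 groups did not overlap between FSH and LH cells in either sex. All FSH below all LH libraries was found in 14.7% of male and 24.1% of female genes.

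Unlike gpr158, the genes rgs7 and gnb5 of the RGS7 and Gβ5 complex were not called higher than negative cells in both male gonadotroph types. Another gene of this list, rgs7bp, was called higher in both, beside 75.8% of all male genes for FSH and 51.2% for LH cells. Both rgs7bp calls were lost under TMM (0.26 in FSH and 0.45 in LH cells), and the LH call also without replicate 3 of every fraction (1.18). gnb5, which encodes Gβ5, had 186, 140, 243 and 259 NR in FSH, 296, 476, 1018 and 429 NR in LH and 107, 170, 132 and 125 NR in negative cells. All its LH libraries lay above all negative libraries, as for gpr158 and 55% of male genes, while FSH and negative overlapped. It was lower in FSH than in LH cells (−1.30, limma adjusted p = 0.00237), a call lost without LH replicate 3 (−0.96). By its means gnb5 passed 2-fold over negative cells only in LH cells. A lower level in FSH than in LH cells was thus favoured by its entry, and this p-value is no independent test. rgs7 had 48.7, 46.1, 59.0 and 36.0 NR in FSH, 37.0, 70.2, 162 and 110 NR in LH and 42.8, 40.7, 43.9 and 50.5 NR in negative cells, and was not called in any comparison. rgs9, a gene of the same family of regulators of G protein signalling, was higher in FSH than in LH cells of both sexes (2.41 in males and 2.32 in females), at means of 22.0 NR in FSH and 3.62 NR in LH cells of males. The male LH mean lies at the detection limit of those libraries (3.12 to 4.83 NR).

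**Figure D5:**
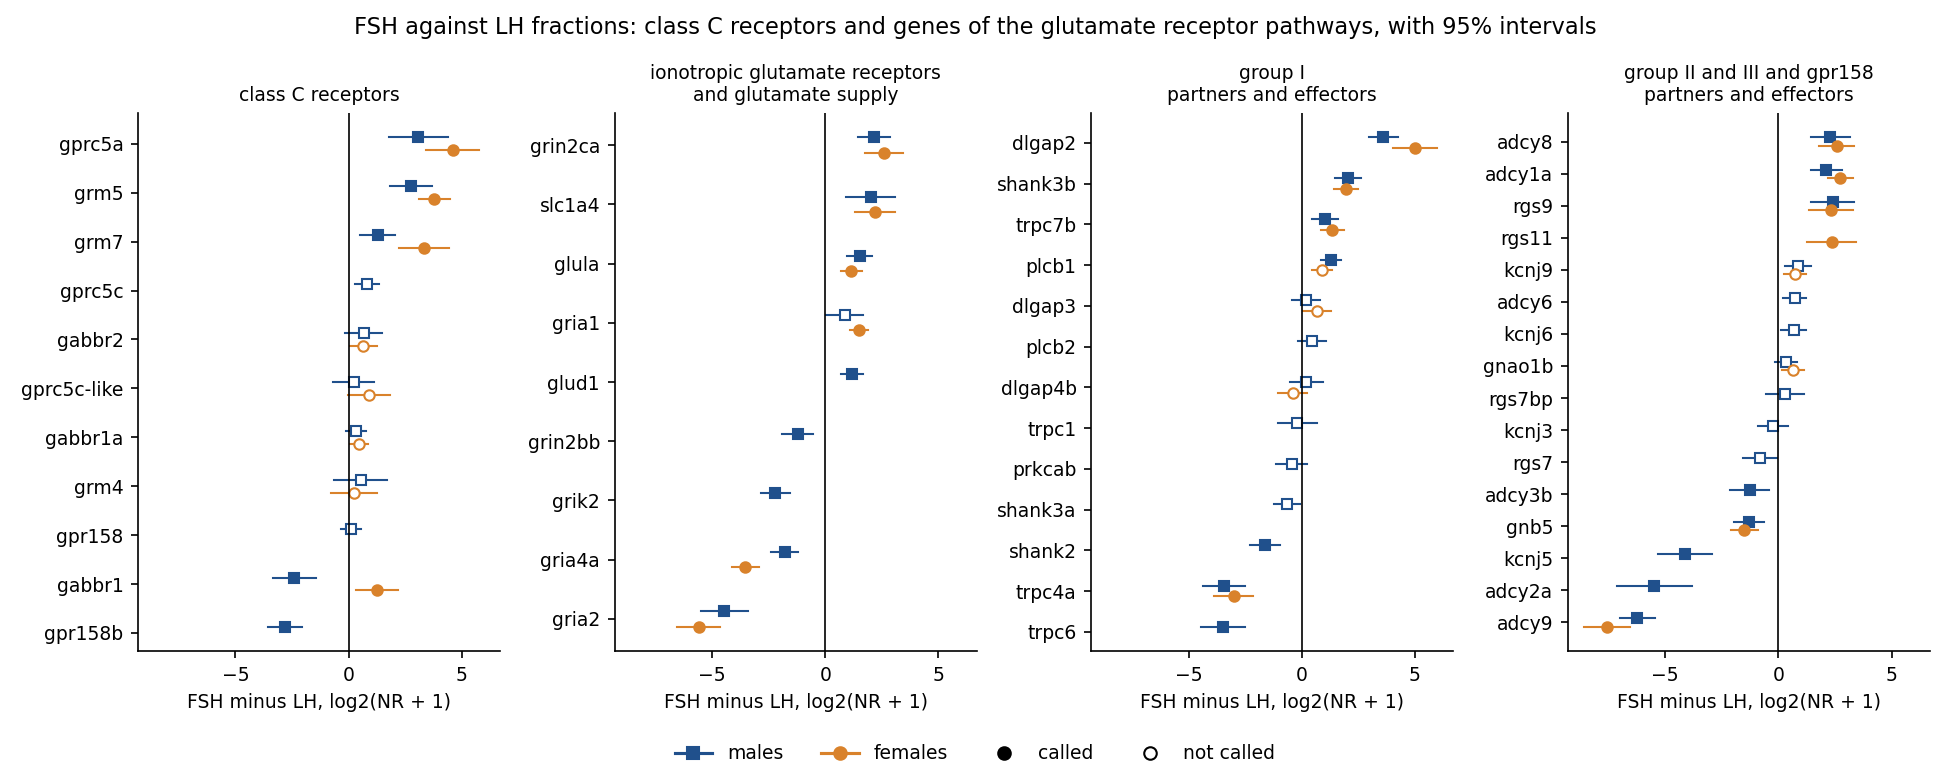
FSH minus LH differences in log2(NR + 1) with 95% limma intervals are drawn for each gene of the 4 lists, males as blue squares and females as orange circles; filled points are called and genes are ordered by their mean difference within a list. Each list holds genes on both sides of 0, with dlgap2 at 3.61 and 5.01 and adcy9 at −6.24 and −7.58 in males and females.

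Over the 12 libraries of a sex, the genes whose log2(NR + 1) resembled each receptor most were named by Pearson correlation, as a description of libraries that share fractions and sorts. For grm5 they were mad1l1, zdhhc14 and col27a1a in males (r = 0.980 to 0.983) and rbm24b, shc1 and si:dkey-92i15.4 in females (0.981 to 0.988). For grm7 they were nlgn4xa, vamp1a and LOC100706008 in males (0.936 to 0.959) and mtss1la, dscamb and adarb2 in females (0.936 to 0.948). For grm4 they were zgc:113425, LOC100691542 and rab33a in males (0.849 to 0.877) and hmgcll1, echdc3 and myom1 in females (0.866 to 0.915). For gpr158 they were LOC100690915, prom1a and scara5 (0.984 to 0.987). Among the receptors themselves, grm5 and grm7 had r = 0.812 in males and 0.766 in females. In males gpr158 had 0.78 with grm5, 0.610 with grm4 and 0.480 with grm7. For grm4 the values were 0.585 in males and 0.462 in females with grm5, and 0.709 and 0.304 with grm7.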

How the data were processed

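Libraries were made from sorted cells with a strand-specific low-input kit and sequenced from 1 end. Before deposit, the authors cleaned reads with Trim Galore, aligned them by STAR against the O_niloticus_UMD_NMBU assembly and took out ribosomal and bacterial sequences. The submitters' processing notes also name HTSeq. What they deposited is a signal per gene and library, the normalized reads, in 1 table for each sex. Tables with the authors' own fold changes and p-values were not used. In the male table each gene name stands 1 line below its values; with the names moved, the FSH minus LH log2 ratios correlated across shared genes between the sexes at 0.957, against 0.123 as deposited.

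All values (100%) were whole multiples of 1 read within 0.02 reads, so reads could be recovered. No replicate was a copy of another, with a chi-square per gene of 2.92 or more. limma 3.58.1 in R 4.3.3 was fitted to log2(NR + 1) with a mean-variance trend on 3 fractions of 4 libraries per sex. The sexes were normalized apart, so they were compared only through the sex by fraction interaction in 1309 shared genes, called at an adjusted p below 0.05. P-values cover genes already selected as enriched. Alternatives were pseudocounts of 5 and 0.25, a filter on low values, no trend, the 2 compared fractions alone, edgeR 4.0.16 with the authors' factors or TMM, DESeq2 1.42.0, a replicate block and each replicate left out. Dropping single libraries was chosen after seeing the data. On recovered reads edgeR called 989 male and 1357 female genes between FSH and LH cells, against 969 and 1333 in limma. The fits were tested on simulated data.

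Equal replicate numbers were taken to mark fractions of 1 pool and sort and so to pair the libraries, which the sample titles do not state. Deviations of libraries with equal numbers correlated at 0.01 to 0.50 in males (11 of 12 above 0.1) and at −0.28 to 0.18 in females (4 of 12). The female values do not bear the pairing out. Gene names come from the annotation of the same assembly, which left 379 male and 265 female names unmatched. The receptors and gene lists were chosen with earlier results of these data known. The named genes are the receptors, other class C receptors, some of the list genes called in a comparison, the 3 most correlated genes per receptor and sex, and marker genes. Other called list genes are counted but not named. A gene of the group I partner list is not reported here and is in none of its counts. No red cell marker was matched (0), and the other-cell markers cdh5 (males) and fabp7a (females) were lower in FSH than in LH cells by −1.73 and −2.65.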

Additional observations from a re-analysis of the deposited data

Results flagged for a closer look

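In 87 groups of 4 libraries, a highest or lowest library far from the other 3 by Dixon's criterion was found 7 times, and chance alone gives it in about 1 of 20 groups. Male LH replicate 1 was highest in lhb (10131 NR) and dlgap2 (65.9 NR). The other libraries apart were male negative replicate 1 in dlgap2 (40.7 NR), male negative replicate 3 in gprc5a (8.78 NR), female FSH replicate 1 in gabbr1 (320 NR), female FSH replicate 3 in gria2 (4.80 NR) and female LH replicate 3 in dlgap2 (21.9 NR). None of the 4 receptors had such a library.

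Some class C and ionotropic receptor genes and plcb1 differed between the sexes in the interaction test, males minus females on the log2 scale, and none of grm5, grm4 and grm7 did in limma. The median over the 1309 genes was 0.29 for FSH against negative cells, 0.53 for LH against negative cells and −0.28 for FSH against LH cells. Whether gabbr1 names the same gene in both tables could not be settled. For FSH against negative cells gabbr1 was at −4.85 (adjusted p = 5.21e-05), gria4a at 2.18 (adjusted p = 0.00429) and plcb1 at 1.18 (adjusted p = 0.0302). For LH against negative cells gria1 was at 1.90 (adjusted p = 0.00752) and gabbr1a at 0.92 (adjusted p = 0.0336). For FSH against LH cells gabbr1 was at −3.63 (adjusted p = 0.00271).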

How the results depend on the processing

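The FSH to LH and FSH to negative differences of grm5 kept their direction and call in both sexes under every alternative and every left-out library, as did the female FSH to LH difference of grm7. The results rest on 4 sorts per sex, on few reads for grm4 and grm7, and on tables that hold mainly genes enriched over negative cells; the cause of the changes below was not tested unless stated.

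Scaling by TMM, which by construction centres a table of enriched genes, changed most. Males were then at 0.28 for grm4, 0.0016 for grm7 and 0.27 for gpr158 (FSH to negative), at 0.56 for grm5, 0.11 for grm4, −0.90 for grm7 and 0.57 for gpr158 (LH to negative), and at 0.90 for grm7 and −0.30 for gpr158 (FSH to LH). Females were at −0.17 for grm4 and 0.21 for grm7 (FSH to negative) and −0.58 for grm4 (FSH to LH), and the LH sex difference of grm4 was −0.36. Other genes that changed sign under TMM were, FSH to negative, gprc5c (−0.40), glud1 (−0.31), dlgap4b (−0.34) and adcy6 (−0.41) in males and gabbr2 (−0.40), gabbr1a (−0.16), glula (−0.072), dlgap3 (−0.26), shank3b (−0.18), kcnj9 (−0.41), gnao1b (−0.25) and adcy8 (−0.12) in females, and, LH to negative, kcnj9 (−0.0024) in males. Genes called under TMM numbered 640 against 1993 on the deposited scale (males, FSH to negative), 275 against 1240 (males, LH to negative), 651 against 1636 (females, FSH to negative), 208 against 548 (females, LH to negative) and 805 against 1333 (females, FSH to LH), and for the sex differences 10 against 18 and 11 against 167.

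The LH to negative call of grm4 in males was lost with a pseudocount of 5 (0.90) or 0.25 (1.43), without trend and with the 2 fractions alone (1.29 each), in edgeR (1.14) and in DESeq2 (1.16). A pseudocount of 5 gave 0.84 for grm4 in females (FSH to negative) and −0.82 for grm7 (LH to negative). The LH sex difference became called for grm5 in DESeq2 (1.67) and for grm7 with a pseudocount of 0.25 (2.54) and without trend (1.84); centred on the median it was −0.28 for grm4. The FSH to negative sex difference was called for 62 genes in DESeq2, 6 when centred and 11 without trend, against 18, and the LH to negative one for 11 genes when centred, against 167.

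With libraries left out, male values ranged over 1.06 to 1.85 for grm5, 0.52 to 1.95 for grm4 and −0.12 to 0.53 for grm7 (LH to negative), and 1.07 to 1.47 for grm7 and −0.045 to 0.26 for gpr158 (FSH to LH). Female values ranged over 0.69 to 1.77 for grm4 (FSH to negative), and −0.43 to 0.28 for grm5, 0.47 to 1.38 for grm4 and −2.09 to −1.13 for grm7 (LH to negative). Sex differences ranged over −0.12 to 0.93 for grm5, −0.0061 to 1.72 for grm4 and −0.56 to 0.50 for grm7 (FSH to negative), 1.10 to 1.89 for grm5, −0.56 to 1.37 for grm4 and 1.34 to 2.55 for grm7 (LH to negative), and −0.0497 to 0.85 for grm4 (FSH to LH).

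The replicate block, which pairs fractions of equal replicate number, changed no call of a receptor: grm5 between FSH and LH cells stayed at 2.76 in males (limma adjusted p = 1.18e-05) and 3.79 in females (2.14e-08), and the LH sex difference had adjusted p of 0.0511 for grm5 and 0.0521 for grm7. With the block 40 genes were called for the FSH to negative sex difference, against 18. For the other class C and list genes called in a comparison, named or not, 3280 values over all alternatives kept their direction and call. A further 182 were no longer called and 13 changed sign.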
